A study of Saccharomyces cerevisiae with 6 samples.

Results

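From the 239 genes (253 rows) of a table of splicing-sensitive arrays of budding yeast, 8 genes of ubiquitin conjugation and the proteasome were taken by name. They are UBC4 (YBR082C), UBC5 (YDR059C), UBC8 (YEL012W), UBC9 (YDL064W), UBC12 (YLR306W), UBC13 (YDR092W), RUB1 (YDR139C) and PRE3 (YJL001W), with 1 row each. The rule that picks them uses names alone, although it was written with earlier results of these data known.

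The mutant cells had the S2197F form of Prp8, the large protein at the heart of the spliceosome, as their sole copy. It was expressed from a HIS-marked centromeric plasmid, with the chromosomal PRP8 gene deleted. The wild type cells had the same chromosomal deletion and a plasmid with normal PRP8. Both were grown in rich medium, overnight at 30 °C and then at 37 °C, until the optical density was near 0.7. Whether the mutant strain came from more than 1 clone is not given in the sources used here. There were 3 biological replicates, each a mutant and a wild type culture compared on an array and its dye flip, or 6 arrays in all. Each value below is the log2 ratio of S2197F over wild type RNA, so a positive value means more signal in the mutant, and n = 3 unless another number is given. Only ratios were deposited for genes, so no level in either strain can be stated, and fewer cells making a transcript cannot be told apart from less of it per cell.

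Ubiquitin is a small protein that is joined to other proteins in steps. An activating enzyme passes it to a conjugating enzyme, which works with a ligase to attach it to a target. Chains of ubiquitin can send the target to the proteasome, a barrel-shaped protease, or act as signals in DNA repair and membrane traffic, and related small proteins such as SUMO and Rub1 (the yeast counterpart of human NEDD8) use conjugating enzymes of their own. Most yeast genes have no intron, whereas each of these 8 genes has an intron feature on the array. The array reads 3 features of each gene: one in the intron, which lies in unspliced transcripts and in intermediates and excised introns, one across the exon junction of the spliced mRNA, and one in an exon, for total RNA of the gene. Neither array probe sequences nor intron sequences were used here.

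Intron signal was the first comparison, which asks whether unspliced RNA of these genes built up in the mutant. None of the 8 member introns rose or fell (0 calls by limma at an adjusted p under 0.05), against 23.5% of all 251 introns tested. At an unadjusted p under 0.05 there were also 0 of 8, where 90 of the 251 introns were higher and 2 lower. The mean ratios lay between -0.10 and 0.42, and their median was 0.01, beside 0.27 over all introns. Only 2 of the 8 members, UBC5 and UBC8, stood above the median of all introns. No member was above 0 in each of the replicates (0 of 8), a pattern shown by 51.4% of the 245 introns with 3 values.

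**Figure D1:**
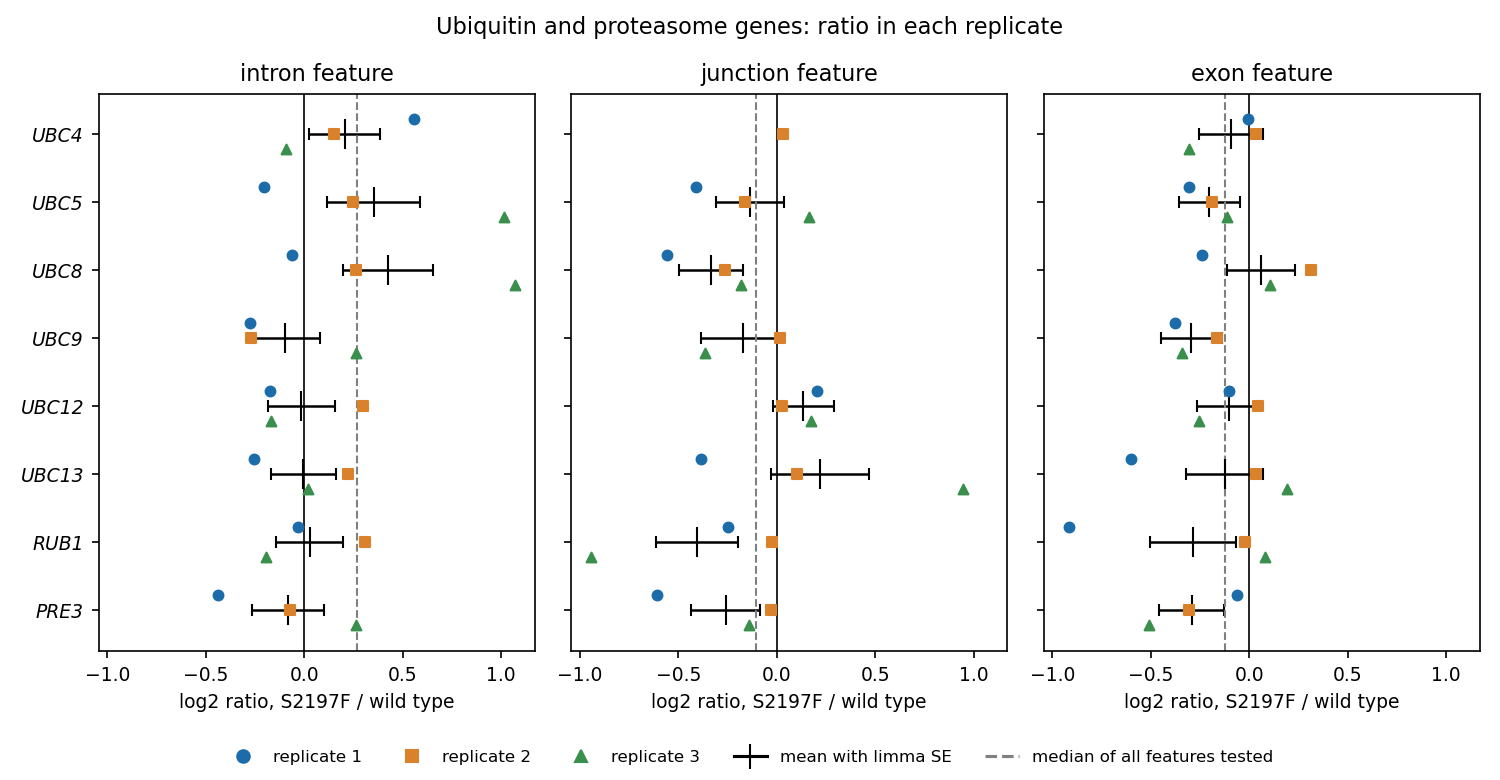
Log2 ratios of S2197F over wild type (x axis) for the intron, junction and exon features of the 8 genes (y axis). Points are the 3 replicates, black bars the mean with limma's SE, and dashed lines the median over all features tested. The introns of UBC5 and UBC8 have 1 replicate each near 1 and 2 replicates between -0.20 and 0.26, and the UBC4 junction has a single value and no mean.

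Ubc4 and Ubc5 are closely related enzymes that attach ubiquitin to short-lived and abnormal proteins, and cells that lack both grow poorly and tolerate heat badly. The UBC4 intron had 0.56, 0.15 and -0.09 in replicates 1, 2 and 3. Its mean was 0.21 ± 0.18 (SE, adjusted p = 0.44), with the highest value in replicate 1. The UBC5 intron had -0.20, 0.25 and 1.01, with a mean of 0.35 ± 0.24 (adjusted p = 0.33), and its highest value was in replicate 3. The replicate that was highest for 1 paralog was the lowest for the other, in both directions. UBC4 minus UBC5 was 0.76, -0.10 and -1.11 for the intron (-0.15 ± 0.94, SD, n = 3), so the mean difference was far smaller than its spread. For the exon it was 0.30, 0.22 and -0.19 (0.11 ± 0.26, SD, n = 3). The pair is given as values, with no test. Whether the exon and junction probes tell the 2 similar genes apart was not tested.

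Ubc8 acts with the GID ubiquitin ligase, which removes enzymes of glucose synthesis when glucose is supplied. Its intron had the highest mean of the group, 0.42 ± 0.23 (adjusted p = 0.22, 1.34-fold, 95% interval -0.10 to 0.95). The 3 values were -0.06, 0.26 and 1.07, so 1 replicate was high and 2 were not. In replicate 3 the UBC8 intron stood above 92.2% of all introns and that of UBC5 above 90.6%, whereas in replicate 1 they stood above 32.3% and 18.3%. Without replicate 1 the UBC8 intron passed (0.67, adjusted p = 0.046), while the adjusted p over the other alternatives ran from 0.10 to 0.83. Without replicate 3 its mean was 0.10.

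Ubc13 builds the chains that act as signals in the bypass of DNA damage. Its intron had -0.25, 0.22 and 0.02 in the 3 replicates (mean -0.0043 ± 0.17, adjusted p = 0.98). Ubc9 is the conjugating enzyme of SUMO and is essential for growth. Its intron had -0.28, -0.27 and 0.26, the lowest mean of the group (-0.10 ± 0.18, adjusted p = 0.73). These introns and those of UBC12 and PRE3 had means just under 0 as deposited and just over 0, between 0.04 and 0.13, once the exon median of a replicate had been subtracted from its values, and in neither form did any of these 4 introns pass.

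Rub1 is a ubiquitin-like protein attached to cullins, the scaffolds of a family of ubiquitin ligases, and Ubc12 is its conjugating enzyme. The RUB1 intron had -0.03, 0.31 and -0.20 (mean 0.03 ± 0.17, adjusted p = 0.93). The UBC12 intron had -0.17, 0.30 and -0.17 (mean -0.02 ± 0.17, adjusted p = 0.96). Both were highest in replicate 2 and below 0 in the other two. Pre3 is a catalytic subunit of the proteasome core, with caspase-like activity. Its intron had -0.44, -0.07 and 0.26 (mean -0.08 ± 0.18, adjusted p = 0.78), with all 3 replicates far apart.

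Replicates shaped these values strongly. In replicate 1 only the UBC4 intron (1 of 8) was above 0 and the median of the 8 was -0.19, beside 0.22 for all introns. In replicate 2 the count was 6 and the medians were 0.23 and 0.29. In replicate 3 the count was 5 and the medians were 0.14 and 0.38. The share of all introns above 0 in a single replicate was not counted. Replicate 2 had the narrowest spread over all introns, an SD of 0.32 against 0.55 and 0.52 in replicates 1 and 3. Across all rows the Pearson correlation between 2 replicates ran from 0.41 to 0.64 for introns. It ran from 0.085 to 0.41 for exons and from 0.0063 to 0.23 for junctions. The exon and junction values of single genes below were thus poorly repeated between replicates.

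**Figure D2:**
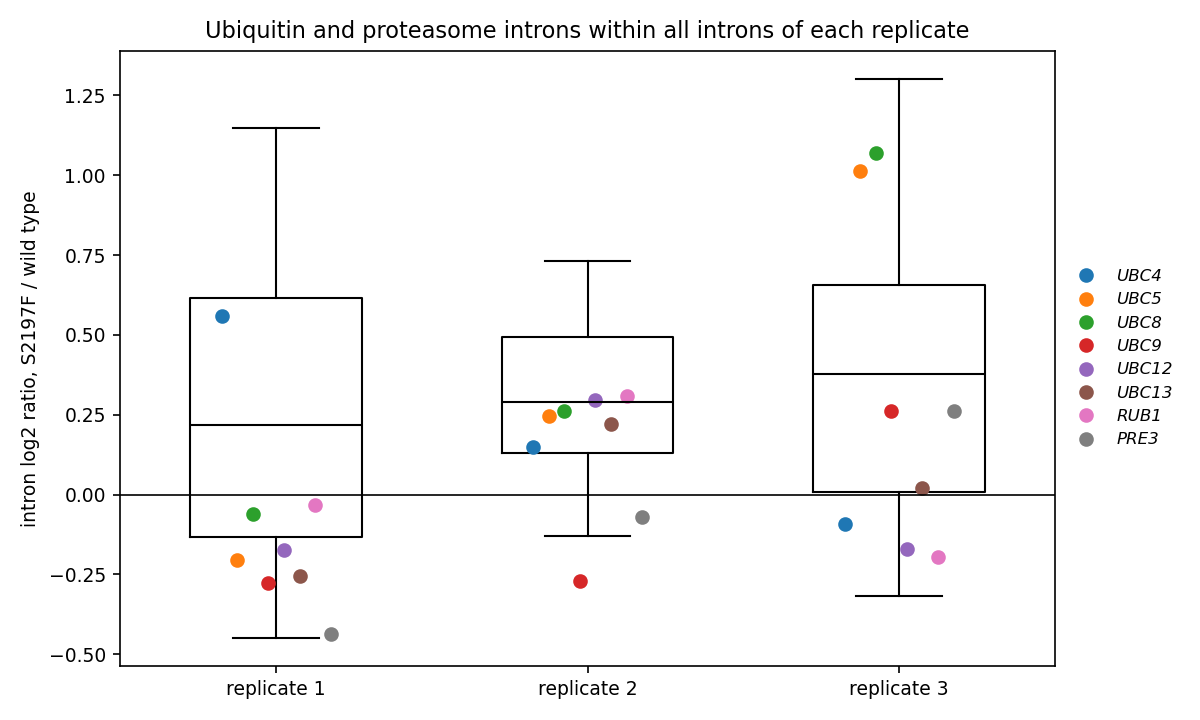
Intron log2 ratios of S2197F over wild type (y axis) in each replicate (x axis). Boxes give the quartiles and median of all introns, whiskers their 5 to 95 percentile range, and points the 8 genes. In replicate 1 all but UBC4 lie below 0, and in replicate 3 UBC5 and UBC8 lie apart from the other points, above the box.

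For the values as deposited, the 95% intervals of the means give the range of sizes for each intron. The smallest intron ratio that passed anywhere on the array was 0.51. Larger ratios did not always pass, such as the RPL40A intron at 0.59 (limma adjusted p = 0.051). For 5 of the 8 members (UBC9, UBC12, UBC13, RUB1 and PRE3) the upper bound of the interval lay below 0.51, with bounds from 0.31 to 0.42. The share of all introns with a bound below 0.51 was not counted, and 0.51 itself was taken from these same data. For UBC4, UBC5 and UBC8 the upper bounds were 0.62, 0.90 and 0.95. Centring on exon medians raised the means of those 5 introns to between 0.04 and 0.16. Bounds after centring, which would be higher, are not given here. ACT1 encodes actin and is a common test case for yeast splicing. Its intron had 0.75, 0.50 and 1.34 in the same arrays (mean 0.86 ± 0.20, adjusted p = 0.024). It ranked 17 from the top of 251, with a 95% interval of 0.41 to 1.32. The call was lost without replicate 2 or 3 (adjusted p = 0.13 and 0.053), with means of 1.05 and 0.62. In those fits 2 of 245 and 47 of 251 introns passed. The intervals of 6 of the 8 members ended below the ACT1 mean of 0.86. The share of all introns whose intervals ended below it was not counted. The difference between a member and ACT1 was not itself tested.

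**Figure D3:**
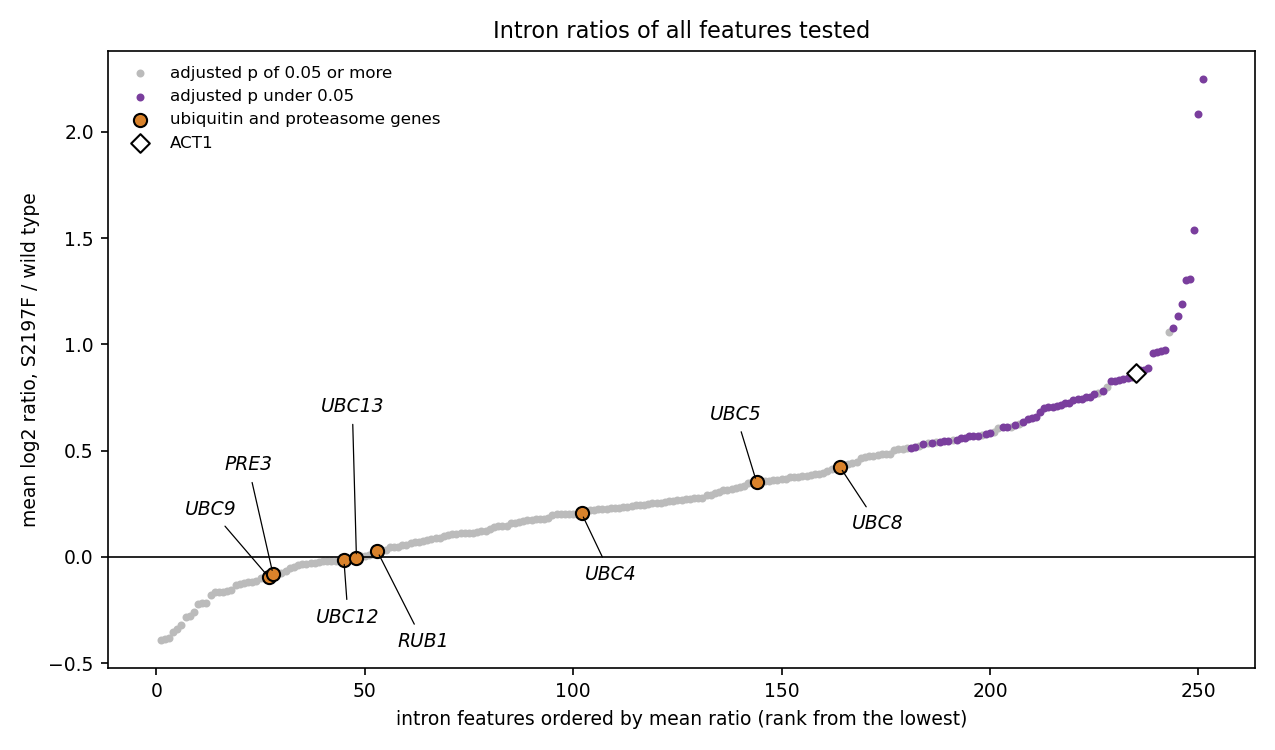
Mean intron log2 ratios of S2197F over wild type (y axis) for 251 introns in order of size (x axis). Purple points have an adjusted p under 0.05, orange points are the 8 genes and the diamond is ACT1. The 8 genes lie between -0.10 and 0.42, left of the purple points, which start at 0.51.

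Junction signal asks whether spliced mRNA of these genes was lost. No member junction rose or fell (0 of 7 tested by limma), where 0.403% of all 248 junctions were called. With an unadjusted p under 0.05 the count was 0 of 7, beside 4 higher and 29 lower of the 248. The UBC4 junction had a value in replicate 2 only (0.03) and was not tested, and that of UBC9 had 2 values (0.02 and -0.36). The median over the 7 was -0.17, beside -0.10 over all junctions. Junctions of 3 members, UBC8, RUB1 and PRE3, were below 0 in each replicate, out of 6 with 3 values, and 29.7% of all junctions were. RUB1 had the lowest mean (-0.40 ± 0.21, adjusted p = 0.42), with -0.25, -0.02 and -0.94, so most of it came from replicate 3. The UBC8 junction had -0.56, -0.26 and -0.18 (mean -0.33 ± 0.16, adjusted p = 0.41), with an SD over replicates of 0.20 against 0.48 for RUB1. PRE3 had -0.61, -0.03 and -0.14 (mean -0.26 ± 0.18, adjusted p = 0.57).

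The UBC12 junction was above 0 in every replicate (0.20, 0.03 and 0.17), and its mean of 0.13 ± 0.15 did not pass (adjusted p = 0.76). The UBC13 junction had the highest mean, 0.22 ± 0.25 (adjusted p = 0.76), which came from replicate 3, with -0.39, 0.10 and 0.95. Without that replicate the mean was -0.14. The UBC5 junction had -0.41, -0.16 and 0.16 (mean -0.14 ± 0.17, adjusted p = 0.78). It was lowest in replicate 1 and highest in replicate 3, as its intron was.

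Exon signal addresses the abundance of the genes in total RNA. No member exon rose or fell (0 of 8 by limma), and over the whole array 0% of 234 exons passed. An unadjusted p under 0.05 was reached by 0 of 8, beside 4 higher and 26 lower of the 234. Means ran from -0.29 to 0.06 with a median of -0.16, close to the -0.12 of all exons. Exons of 3 members, UBC5, UBC9 and PRE3, were below 0 in each replicate, and 33.3% of all exons were. UBC9 had -0.38, -0.16 and -0.34 (mean -0.29 ± 0.16, adjusted p = 0.43). PRE3 had -0.06, -0.31 and -0.51 (mean -0.29 ± 0.17, adjusted p = 0.45), and UBC5 -0.31, -0.19 and -0.11 (mean -0.20 ± 0.15, adjusted p = 0.56).

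The other exons varied more in sign. RUB1 had -0.91, -0.02 and 0.08 (mean -0.29 ± 0.22, adjusted p = 0.56) and UBC13 -0.60, 0.03 and 0.19 (mean -0.12 ± 0.19, adjusted p = 0.83), both set by replicate 1. UBC8 had -0.24, 0.31 and 0.11, the single member with a mean above 0 (0.06 ± 0.17, adjusted p = 0.89). UBC4 had -0.01, 0.03 and -0.31 and UBC12 -0.10, 0.04 and -0.26 (adjusted p = 0.83 for both). The exon medians of the 3 replicates over all genes were -0.15, -0.07 and -0.19, and after they were subtracted the means of UBC4, UBC12 and UBC13 were 0.04, 0.03 and 0.01, on the other side of 0.

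The last comparison takes the difference of 2 features of 1 gene in 1 replicate, in which the centring of an array drops out. Intron minus junction rose for UBC8 and for none of the other 6 members tested (1 of 7), where 21.5% of all 247 features were called. UBC8 had 0.49, 0.52 and 1.25 in the 3 replicates. The mean was 0.76 ± 0.28 (adjusted p = 0.046, a ratio of 1.69-fold, 95% interval 0.19 to 1.32), and it ranked 51 from the top of 247. All 3 replicates were above 0, as for 57.5% of the features with 3 values. The SD over replicates was 0.43, and the fit weighted the variance common to all features heavily, with 57.2 prior degrees of freedom, so the SE reflects the spread of UBC8 itself little. The call was lost whichever replicate was left out, with an adjusted p of 0.056, 0.082 and 0.29 without replicates 1, 2 and 3. The UBC8 means in these fits were 0.89, 0.87 and 0.51. Over all features, 33 of 221, 37 of 214 and 2 of 240 passed in them. The UBC8 call held under the other alternatives (adjusted p from 0.032 to 0.046). For the same gene neither the intron nor the junction passed on its own.

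UBC5 and RUB1 were also above 0 in every replicate and did not pass. UBC5 had 0.20, 0.41 and 0.85 (0.49 ± 0.28, adjusted p = 0.21). RUB1 had 0.22, 0.33 and 0.75 (0.43 ± 0.28, adjusted p = 0.28). All 3 of these genes had their highest difference in replicate 3. PRE3 had 0.17, -0.04 and 0.40 (0.18 ± 0.28, adjusted p = 0.67) and UBC9 -0.29 and 0.62 in 2 replicates (adjusted p = 0.75). UBC12 had -0.38, 0.27 and -0.34 (-0.15 ± 0.28, adjusted p = 0.73) and UBC13 0.13, 0.12 and -0.93 (-0.22 ± 0.29, adjusted p = 0.60). The median over the 7 members was 0.18, and over all features 0.39. ACT1 had 2.01, 0.41 and 1.27 (1.23 ± 0.29, adjusted p = 0.0013). That call was lost without replicate 1 or 3 (adjusted p = 0.073 and 0.14), with means of 0.84 and 1.21. In those fits 33 of 221 and 2 of 240 features passed.

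**Figure D4:**
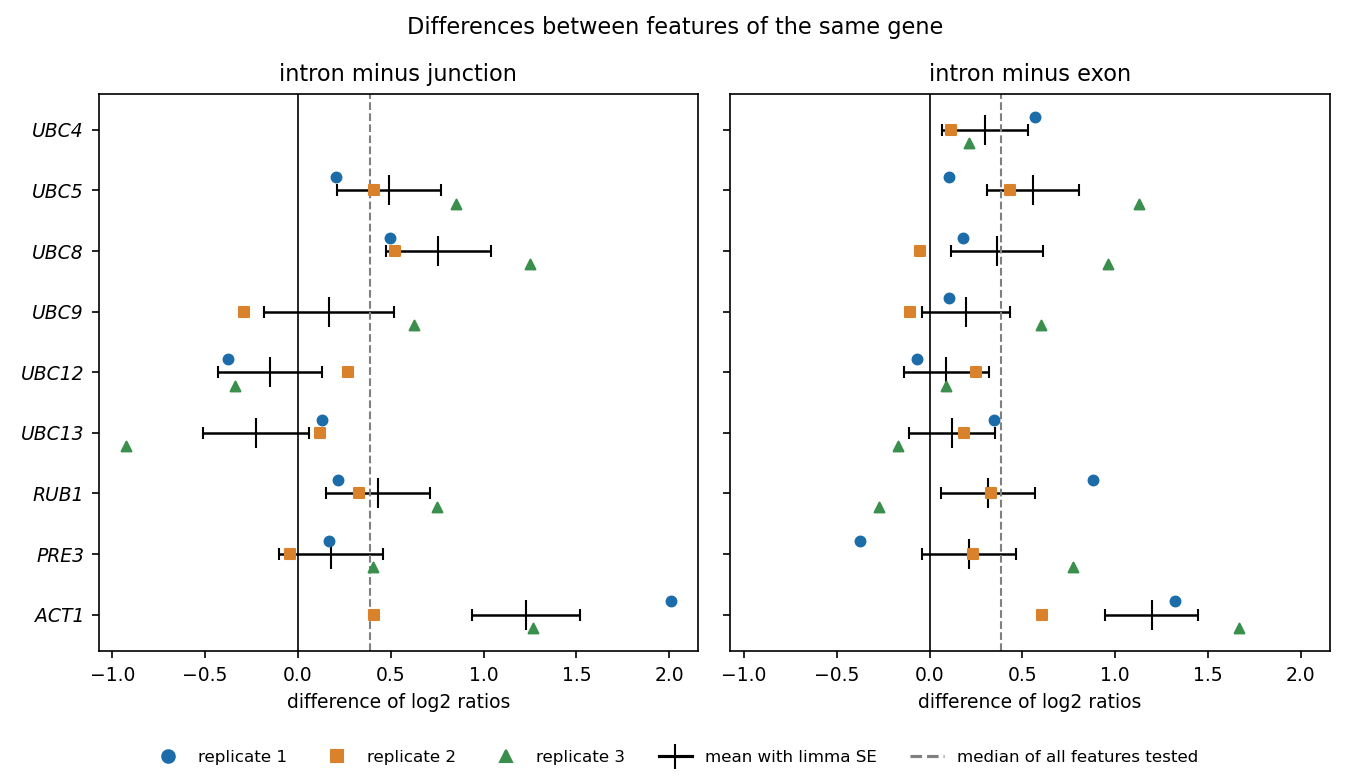
Differences between the log2 ratios of 2 features of the same gene (x axis) for the 8 genes and ACT1 (y axis), with replicates, means, limma's SE and the median of all features as dashed lines. UBC8 has intron minus junction values of 0.49, 0.52 and 1.25, and ACT1 has the highest mean in both panels.

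Intron minus exon was above 0 on average for all 8 members, with means from 0.09 to 0.56 as deposited, and for 209 of all 246 features. None of them passed by limma (0 of 8), against 29.3% of all 246 features. A single member, UBC5, had an unadjusted p under the threshold (1 of 8). At that p 101 of the 246 features were higher and 1 was lower. UBC5 had 0.10, 0.44 and 1.13 in the replicates (0.56 ± 0.25, adjusted p = 0.095). It was above 0 in all 3, as was UBC4 (0.57, 0.12 and 0.21), which makes 2 of 8 members, where 54.2% of all features were. Of the other members UBC8 had 0.18, -0.05 and 0.96 (0.36 ± 0.25, adjusted p = 0.29) and RUB1 0.88, 0.33 and -0.27 (0.31 ± 0.25, adjusted p = 0.37). PRE3 had -0.37, 0.24 and 0.77, lowest in the replicate where RUB1 was highest. The median over the members was 0.26 and over all features 0.38. Only UBC5 (1 of 8) was above that median.

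Junction minus exon compares spliced with total RNA. By limma 0 of 7 members passed, and so did 0% of all 244 features. At an unadjusted p under 0.05 it was 0 of 7 members, beside 5 higher and 6 lower of the 244. UBC8 was the lowest member and the single one below 0 in every replicate, with -0.32, -0.57 and -0.29 (-0.39 ± 0.20, adjusted p = 0.69). UBC13 was the highest and the single one above 0 in every replicate, with 0.21, 0.07 and 0.75 (0.34 ± 0.22, adjusted p = 0.70). That makes 1 below and 1 above of the 6 members with 3 values. Over all 216 features with 3 values, 34 were below and 39 above in every replicate, so neither member count stood out.

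Other genes of the pathway with introns were read from a list. Of MMS2, DCN1, SUS1, AMA1, RPL40A and RPL40B, 5 were found by name in the table, and SUS1 was not analysed here. None of the 5 passed for intron, junction or exon (0 calls by limma), where 23.5%, 0.403% and 0% of all features were called. At an unadjusted p under 0.05 there were 1 higher intron and 1 lower junction among the 5. Over all features 90 of 251 introns were higher and 29 of 248 junctions lower at that p. RPL40A, which encodes ubiquitin fused to a ribosomal protein, had the highest intron ratio, with 0.94, 0.24 and 0.58 (0.59 ± 0.18, adjusted p = 0.051). It lay at the threshold and passed under 4 alternatives, with an adjusted p between 0.023 and 0.042, but in none of the fits that left out a replicate (0.066 to 0.21). Without replicates 1, 2 and 3 its mean was 0.41, 0.76 and 0.59, where 35, 2 and 47 introns passed over the whole array. Its intron minus exon rose, with 0.99, 0.28 and 1.02 (0.76 ± 0.24, adjusted p = 0.024). That was the single call among the 5, where 29.3% of all 246 features were called. The call was lost without replicate 1 or without replicate 3 (adjusted p = 0.15 and 0.100), with means of 0.65 and 0.63. In those fits 0 of 240 and 57 of 246 features passed. RPL40B, the paralog of RPL40A, had an intron ratio of 0.20 ± 0.16 (adjusted p = 0.40).

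MMS2, the partner of Ubc13 in chain building, had an intron ratio of 0.09 ± 0.17 (adjusted p = 0.74). Its junction had -0.25, -0.62 and -0.65 (-0.51 ± 0.17, adjusted p = 0.22), below 0 in all replicates, whereas the UBC13 junction had a mean above 0. Its intron minus junction was 0.47, 0.87 and 0.44 (0.59 ± 0.28, adjusted p = 0.11). DCN1, which helps attach Rub1 to cullins, had an intron ratio of 0.18 ± 0.18 (adjusted p = 0.51). AMA1, a meiotic activator of the anaphase-promoting complex, a ubiquitin ligase, had -0.02 ± 0.19 (adjusted p = 0.96), and 0.12 after centring on exons.

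Likeness between genes was taken as the Euclidean distance over 9 values, 3 features in 3 replicates, among the 210 rows that had all of them, which include 6 of the members. It is a description of these arrays, and the features of a replicate share its arrays. UBC5 was nearest to YBL059W (0.25) and YOL048C (0.48), and UBC8 to the same 2 genes (0.68 and 0.52), where the median distance to other rows was 1.45 for UBC5 and 1.52 for UBC8. RUB1 was nearest to RPL18B (0.50) and then PHO85 (0.74). PRE3 was nearest to ERV1 and MUD1 (0.54 each), UBC12 to DTD1 (0.43) and YSC84 (0.59), and UBC13 to YPR098C (0.76) and YLR426W (0.89). None of these nearest rows was another member (0 of 12). Members made up only 6 of the 210 rows, so this count says little on how alike the members were.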

How the data were processed

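The authors' deposited table gives log ratios of S2197F over wild type with 1 value per replicate for each of 3 features per row (exon, intron and junction). Per the labels' descriptions, each value combines an array with its dye flip. How the images were read, corrected and normalized, and the base of the logarithm, is not given in the sources used here. Base 2 was assumed, because the deposited single-array log2 ratios stop at 16.61, which is log2 of 100000, so every fold rests on that assumption. The single-array table has no gene names and served only for this check. The number of arrays limits the precision, and depth does not apply.

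Features listed on several rows with identical values were counted once in the fit of exon, intron and junction ratios. The fits of differences and the likeness measure took every row, so a repeated feature could enter them more than once. Features with values in at least 2 replicates entered a limma model of the mean ratio (limma 3.58.1, R 4.3.3) across the whole table. It tested the mean against 0, two-sided, with variances moderated by empirical Bayes. The 3 feature classes shared a fit, and each difference between classes had its own. The p-values were adjusted by Benjamini-Hochberg within a class over all features, at 0.05. SEs are limma's moderated ones. The fit of exon, intron and junction ratios was tested on simulated data, with shifts larger than any member intron mean and independent noise. That test did not cover the fits of differences or effects shared by the features of a replicate. The labels call the replicates independent cultures, mutant and wild type being grown together.

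All rows of the 8 genes are named, with ACT1, a list of other pathway genes with introns, and the 2 nearest rows of each member with 9 values. The members and lists were chosen with earlier results of these data known. Of the 8 locus tags, 8 carry the same symbol in RefSeq. Probe sequences and genome coordinates were not used. Alternatives were centring on exon medians, values in all replicates only, separate fits per class (and 1 shared fit for the differences), robust variances, and leaving out each replicate.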

Additional observations from a re-analysis of the deposited data

How the results depend on the processing

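The counts of members that passed were unchanged when features had to have values in all replicates, with separate or shared fits, with robust variances and after centring on exon medians. Without a replicate the number of introns that passed among the 8 members was between 0 and 1, and for intron minus junction it was 0 in each case. Over all features, leaving out 1 replicate gave between 2 and 47 introns, 0 and 11 junctions, 2 and 37 intron minus junction differences and 0 and 57 intron minus exon differences. Centring gave 91 introns and 0 junctions, and separate fits gave 0 junctions. The medians of the intron, junction and exon ratios over the members moved by less than their replicate spread under each alternative that could change them. That spread was the SD of the 3 replicate medians (0.22, 0.19 and 0.14), a wide measure that only a large move could exceed. Centring moved the intron median from 0.01 to 0.15, the junction median from -0.17 to -0.05 and the exon median from -0.16 to -0.03. The medians of the differences were not recomputed. The UBC9 junction could not be tested without replicate 2 or without replicate 3, since 1 value was left. Ratios near 0 changed sign. After centring, the exons of UBC4, UBC12 and UBC13 had 0.042, 0.031 and 0.012, and the introns of UBC9, UBC12, UBC13, PRE3 and AMA1 had 0.040, 0.12, 0.13, 0.054 and 0.12. When replicates were left out in turn, exon ratios lay between -0.16 and 0.012 for UBC4, -0.066 and 0.21 for UBC8, -0.28 and 0.11 for UBC13, and -0.47 and 0.029 for RUB1. Intron ratios lay between -0.17 and 0.063 for UBC12, -0.12 and 0.12 for UBC13, -0.11 and 0.14 for RUB1, -0.25 and 0.096 for PRE3, -0.029 and 0.29 for DCN1, and -0.16 and 0.19 for AMA1. The UBC13 junction lay between -0.14 and 0.52 and its intron minus junction between -0.40 and 0.13. Intron minus exon lay between -0.0025 and 0.35 for UBC9 and -0.069 and 0.50 for PRE3. None of these ratios passed the threshold in either sign, and the cause was not tested.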
